A study of Danio rerio with 6 samples.

Results

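Hox genes encode homeodomain transcription factors that give cells their position along the body. They lie in clusters, and the number in a gene's name follows its place in the cluster. Genes with low numbers are used in the hindbrain and the pharyngeal arches, genes with middle numbers in the anterior trunk and spinal cord, and genes with high numbers in the posterior trunk, the tail and the fins. The forebrain, the midbrain and the eye lie in front of the Hox domain. Here every gene of the deposited table with a symbol made of hox, a cluster letter and a number was followed. The symbol also held a copy letter for 15 genes and lacked it for the others. This gave 48 genes of the 34965 in the table. There were 13 genes with numbers 1-4, 12 with numbers 5-8 and 23 with numbers 9-13.

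The data were 6 poly(A)-selected RNA-seq libraries of heads from AB strain zebrafish at 36 hpf (hours post-fertilization), 3 from prpf31-/- mutants and 3 from wild-type siblings. The mutants carry a CRISPR/Cas9 knockout of prpf31, a gene for a splicing factor of the U4/U6.U5 tri-snRNP. For each library, 35 heads of the same genotype were pooled, cut with needles from embryos whose tails went to genotyping. In such pools, fewer cells of a type and less RNA per cell cannot be told apart. Total counts were 65612727 to 66381302 in mutants and 58706617 to 65799306 in siblings. The mutated gene itself, prpf31, had 22.4, 24.5 and 27.3 CPM (counts per 1000000 counts of the library, scaled by the TMM method of edgeR) in mutants 1, 2 and 3, against 38.7, 37.9 and 37.6 CPM in siblings 1, 2 and 3. Its log2 fold change was −0.62 ± 0.11 (± SE, the standard error of the fit, edgeR quasi-likelihood test, adjusted p = 0.018).

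Mutant 1 stood apart from the other libraries and is described on its own first. The scaling factor that TMM gave it was 0.816, while the remaining 5 libraries had 1.02 to 1.06. Its top 10 genes held 14.5% of all counts, and those of the remaining libraries 8.14% to 9.54%. Results between genotypes are therefore given both for mutants 2 and 3 against the 3 siblings and for all 3 mutants against the 3 siblings.

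All 48 Hox genes passed the filter on low counts in both comparisons. Together they took 0.0639% to 0.0809% of a library's counts. The median count of a Hox gene in a library was 669, and apart from HOXA11 (ENSDARG00000104162), which had as few as 21, no Hox gene had under 127 in any library. For 38 genes the copy letter was known or followed from the only copy left in the RefSeq table of symbols. The other 10 genes form 5 pairs of copies a and b whose letters could not be assigned, and these are given with the last digits of their Ensembl identifier, as in HOXC12-70352 for ENSDARG00000070352. The gene models of some Hox genes overlap, 18 of the 49 in the RefSeq table. The model of hoxc3a overlaps those of hoxc4a, hoxc5a, hoxc6a, hoxc8a and hoxc9a, and that of hoxb3a overlaps those of hoxb4a, hoxb5a and hoxb6a. That of hoxb1b overlaps those of hoxb5b and hoxb6b, that of hoxa3a those of hoxa4a and hoxa5a, and that of hoxd3a that of hoxd4a. Reads of overlapping models may have been dropped or shared in counting, so their levels carry that uncertainty.

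The sibling heads contained RNA of the whole Hox series, and the levels per length declined with number only in part. On the scale of TMM-scaled FPKM (CPM per kilobase of gene), the median gene had 13.5 in siblings for numbers 1-4, 11.8 for numbers 5-8 and 5.25 for numbers 9-13. The highest of numbers 1-4 were hoxa3a (58.3 ± 2.18 FPKM, SD, n = 3), which acts in the posterior hindbrain and the arches, hoxb3a (36.5 ± 2.36 FPKM) and hoxc3a (20.3 ± 0.69 FPKM). Among numbers 5-8, the trunk genes hoxb8a, HOXB5-54030 and hoxc8a led with 24.2, 15.3 and 13.4 FPKM. Among numbers 9-13, hoxb9a, HOXC12-70352 and hoxc9a led with 16.7, 15.3 and 13.4 FPKM. Levels per length of numbers 9-13 ranged from 0.798 to 16.7 FPKM and overlapped those of numbers 1-4, which ranged from 1.87 to 58.3 FPKM.

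In mutant 1, nearly all Hox genes with numbers 9-13 were above their level in the other libraries, while most genes with lower numbers were not. For numbers 9-13, the TMM-scaled level in mutant 1 over the mean of mutants 2 and 3 had a median of 2.51 (1.62 to 3.36). Over the mean of the siblings the median was 2.07 (0.911 to 2.97). The summed TMM-scaled FPKM of the 23 genes with numbers 9-13 was 275.6 in mutant 1, 95.8 in mutant 2 and 122.3 in mutant 3, against 142.8, 131.9 and 136.7 in siblings 1, 2 and 3. Mutant 1 lay far above the other 5 libraries, and mutants 2 and 3 lay below all 3 siblings. For numbers 1-4 the sums were 221.8, 191.3 and 207.3 FPKM in mutants 1, 2 and 3, against 211.0, 216.5 and 208.8 FPKM in siblings 1, 2 and 3. For numbers 5-8 they were 149.5, 119.0 and 132.6 FPKM in the mutants, against 134.4, 141.6 and 145.3 FPKM in the siblings. In these groups mutant 1 was highest by a narrow margin, which depended on the scaling. In the deposited FPKM, without TMM, the sums of mutants 1, 2 and 3 were 180.8, 195.4 and 216.0 for numbers 1-4 and 121.9, 121.5 and 138.2 for numbers 5-8, and the sum for numbers 9-13 was still highest in mutant 1 (224.7, against 97.8 to 145.5 in the other 5 libraries). The ratio of the sum for numbers 9-13 to that for numbers 1-4, which does not depend on how libraries are scaled, was 1.24 in mutant 1, 0.501 in mutant 2 and 0.59 in mutant 3, against 0.677, 0.609 and 0.655 in siblings 1, 2 and 3. This is a single library, so the difference was not tested.

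**Figure D1:**
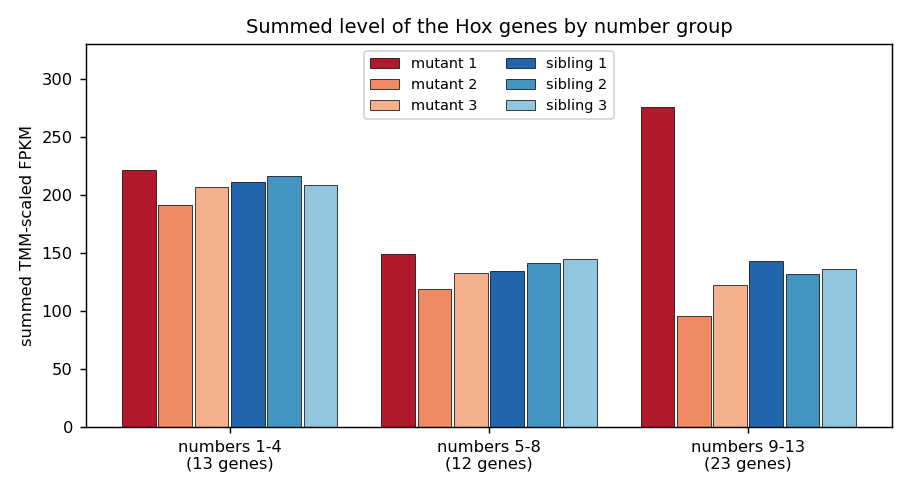
Summed TMM-scaled FPKM (y axis) of the Hox genes with numbers 1-4, 5-8 and 9-13 in each of the 6 libraries, with mutants in red tones and siblings in blue tones. For numbers 9-13 the bar of mutant 1 stands at 275.6, with the other 5 libraries between 95.8 and 142.8.

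Gene by gene, mutant 1 was the highest of the 6 libraries for 22 of the 23 genes with numbers 9-13, 4 of the 12 with numbers 5-8 and 4 of the 13 with numbers 1-4. Among all 24277 genes tested, mutant 1 was highest for 27.6% and lowest for 30.3%. It was lowest for 0, 5 and 3 of the genes with numbers 9-13, 5-8 and 1-4. The exception among numbers 9-13 was HOXA11-04162, the gene with the fewest counts, which had 0.708 CPM in mutant 1 and reached 0.947 CPM in sibling 2. Even this gene, like the other 22, was higher in mutant 1 than in both mutant 2 and mutant 3. With library sizes alone in place of TMM, mutant 1 was highest for 20 of the 23 genes with numbers 9-13, 3 of 12 with numbers 5-8 and 2 of 13 with numbers 1-4. On that scale mutant 1 was highest for 2951 and lowest for 12681 of all 24277 genes tested.

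The difference was larger at high numbers. The level in mutant 1 over the mean of mutants 2 and 3 had a median of 1.00 over the genes with numbers 1-4 (0.743 to 1.72), 1.05 over numbers 5-8 (0.709 to 2.62) and 2.51 over numbers 9-13 (1.62 to 3.36), beside 0.963 over all genes tested. With library sizes alone the medians were 0.793, 0.832 and 1.98, beside 0.761 over all genes. On either scale the medians of numbers 1-4 and 5-8 were near that of all genes, and that of numbers 9-13 was above it. By number, the summed FPKM of mutant 1 was 0.784 times that of mutants 2 and 3 for number 5, 1.17 times for number 6, 2.62 times for the only gene of number 7, 1.35 times for number 8 and 2.52 times for number 9. It was 2.70, 2.93, 2.45 and 2.21 times for numbers 10, 11, 12 and 13. Over the 48 genes, number and the log2 ratio had a Pearson correlation of 0.75 and a Spearman correlation of 0.71, where all points share the same 3 libraries and genes of a cluster are neighbours.

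**Figure D2:**
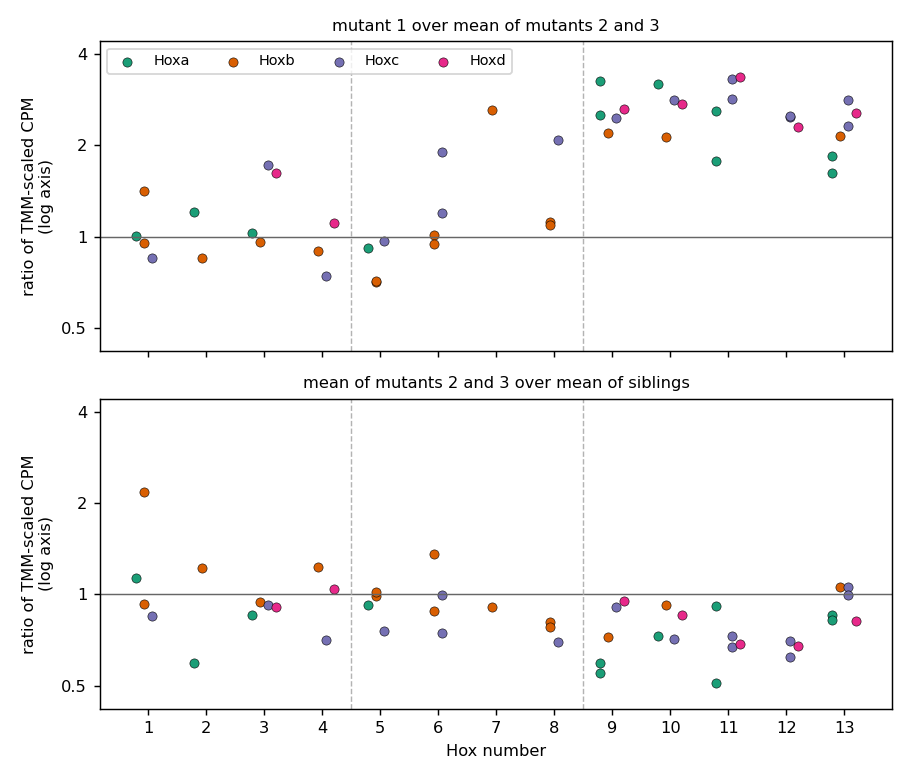
Ratio of TMM-scaled CPM on a log axis for each of the 48 Hox genes against its number, with mutant 1 over the mean of mutants 2 and 3 above, and the mean of mutants 2 and 3 over the mean of the siblings below. Colours give the cluster letter and dashed lines part numbers 1-4, 5-8 and 9-13. In the upper panel every gene with numbers 9-13 lies at 1.62 or above, and in the lower panel most of them lie below 1.

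Single genes of the posterior trunk and tail are given next. The level of hoxd9a, which acts in the pectoral fin and posterior trunk, was 32.0 CPM in mutant 1, 11.6 CPM in mutant 2 and 12.6 CPM in mutant 3, against 14.1, 11.8 and 12.3 CPM in siblings 1, 2 and 3. The 5 libraries other than mutant 1 lay within a range of a few CPM. For hoxa10b the values were 32.0, 8.79 and 11.4 CPM in mutants 1, 2 and 3, against 15.3, 13.8 and 12.3 CPM in the siblings. For hoxd11a, with the largest ratio of mutant 1 to mutants 2 and 3 (3.36), they were 13.4, 2.86 and 5.12 CPM in the mutants, against 7.30, 5.41 and 4.70 CPM in the siblings. Genes of number 13, the last of each cluster and used in the tail, were also highest in mutant 1, 6 of 6. The level of hoxb13a was 16.9 CPM in mutant 1, 6.71 CPM in mutant 2 and 9.01 CPM in mutant 3, against 6.43, 6.23 and 9.61 CPM in siblings 1, 2 and 3. HOXC13-13877 had 15.6, 4.39 and 6.71 CPM in the mutants, against 5.07, 3.95 and 6.76 CPM in the siblings. The smallest ratios of the group with more counts were those of hoxa13a (1.62) and hoxa13b (1.85), genes of the fin fold.

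Some genes with numbers 1-8 were also high in mutant 1, and others were low. The middle gene hoxb7a, the only gene of number 7, had 15.2 CPM in mutant 1, 5.55 CPM in mutant 2 and 6.04 CPM in mutant 3, against 6.35, 6.09 and 6.74 CPM in siblings 1, 2 and 3. Its neighbour hoxb8a had 39.9, 31.8 and 39.3 CPM in the mutants, against 39.7, 44.4 and 47.8 CPM in the siblings, and so did not share the high value of mutant 1. The ratio of hoxb7a to hoxb8a per length was 0.896 in mutant 1, 0.411 in mutant 2 and 0.361 in mutant 3, against 0.376, 0.323 and 0.332 in the siblings. High values in mutant 1 were also seen for hoxc8a (23.1 CPM, against 10.6 to 17.5 CPM in the other 5 libraries) and for hoxc3a (43.9 CPM, against 22.9 to 28.7 CPM). In contrast, hoxc4a was lowest in mutant 1 (8.23 CPM), and HOXB5-54030 had 18.1 CPM in mutant 1 beside 21.3 to 27.4 CPM elsewhere.

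**Figure D3:**
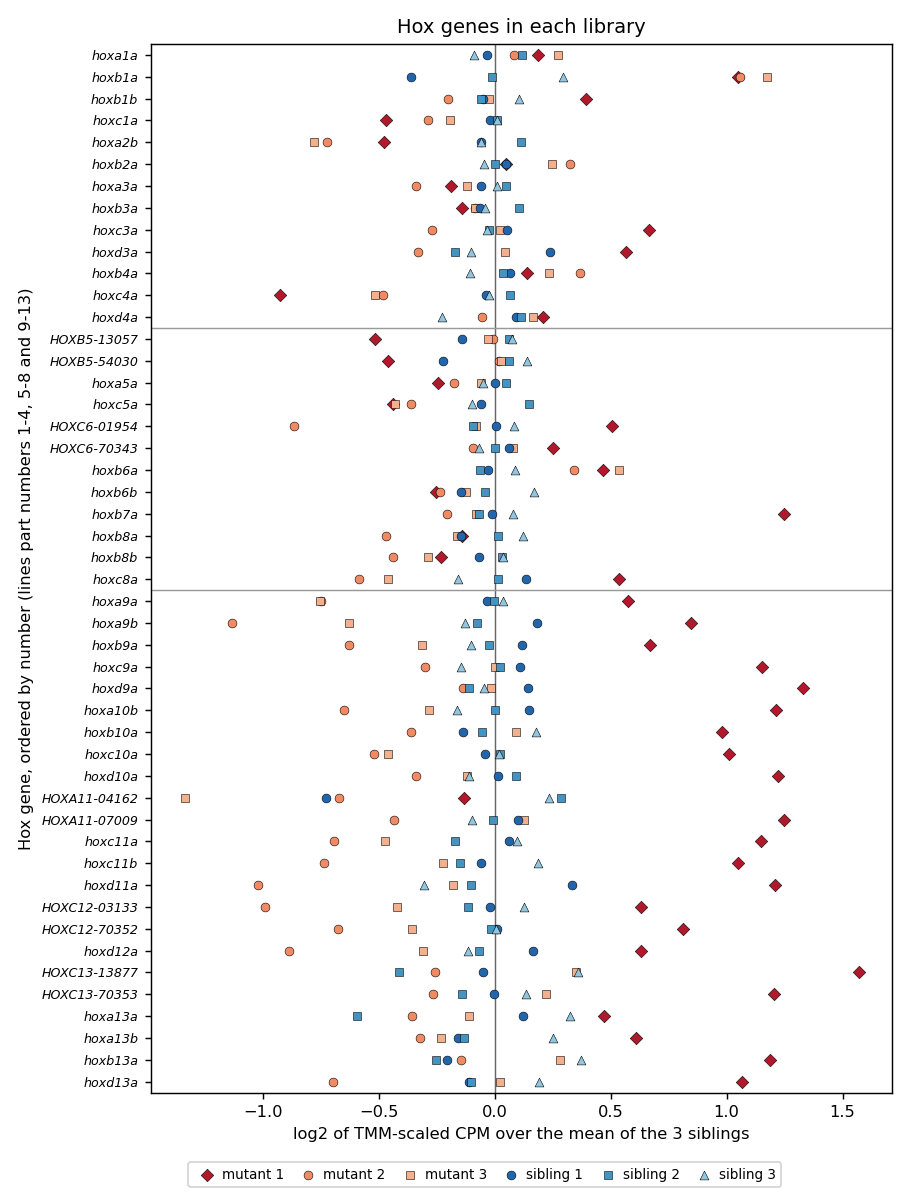
Level of each of the 48 Hox genes in each library, as log2 of TMM-scaled CPM over the mean of the 3 siblings (x axis), with the genes ordered by number down the y axis and grey lines between numbers 1-4, 5-8 and 9-13. The dark red diamonds of mutant 1 move to the right of all other points in 22 of the 23 genes with numbers 9-13, and those of mutants 2 and 3 lie to the left of all siblings in 12 of them.

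Markers of other tissues also differed in mutant 1, and their part in the Hox values was not tested. Over all genes tested, mutant 1 was highest for 27.6% and lowest for 30.3%. Of 9 genes of trunk muscle, 8 were highest in mutant 1, and their summed level was 32374 FPKM in mutant 1 and 11999 to 12076 FPKM in mutants 2 and 3, against 11499 to 14082 FPKM in siblings. Of these, myod1, which sets up the muscle lineage, had 70.7 CPM in mutant 1, beside 19.2 to 34.8 CPM in the other libraries. The most abundant muscle gene of the list was actc1b, with 40533 CPM in mutant 1, beside 13307 to 16650 CPM elsewhere. Tail bud genes were highest in mutant 1 for 3 of 4 tested, with a sum of 21.2 FPKM in mutant 1 and 7.15 to 8.87 FPKM in mutants 2 and 3, against 7.60 to 9.69 FPKM in siblings. The notochord and tail bud gene tbxta, the most abundant of this list by CPM, had 29.4 CPM in mutant 1, beside 9.35 to 13.3 CPM elsewhere. In contrast, msgn1 had 0.503 CPM in mutant 1, below mutant 3 (0.775 CPM). The genes of forming somites ripply2, mespaa and mespab were at or near 0 in every library. Kidney (pronephros) genes were highest in mutant 1 for 3 of 7, with sums of 74.9 FPKM in mutant 1 and 31.7 to 41.8 FPKM in mutants 2 and 3, against 34.9 to 45.3 FPKM in siblings. The tubule gene cdh17 had 102.4 CPM in mutant 1, beside 34.1 to 55.4 CPM elsewhere. Pectoral fin bud genes were highest in mutant 1 for 3 of 7, with sums of 576.9 FPKM in mutant 1 and 252.7 to 268.9 FPKM in mutants 2 and 3, against 226.0 to 326.3 FPKM in siblings. Most of this sum came from the fin fold genes and1 and and2, the second of which had 602.8 CPM in mutant 1, beside 193.3 to 306.4 CPM elsewhere. The median ratio of mutant 1 to mutants 2 and 3 over the list was 1.07, and tbx5a and hand2, factors of the fin bud, were lowest in mutant 1.

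The tissues in front of the Hox domain went the other way in mutant 1. Of 8 eye genes, 8 were lowest in mutant 1, with a sum of 12.5 FPKM in mutant 1 and 45.9 to 57.0 FPKM in mutants 2 and 3, against 60.9 to 75.1 FPKM in siblings. Of 10 genes of the forebrain and midbrain, 8 were lowest in mutant 1, with sums of 63.3 FPKM in mutant 1 and 128.6 to 136.6 FPKM in mutants 2 and 3, against 124.3 to 129.6 FPKM in siblings. Hindbrain genes lay between these lists. They were highest in mutant 1 for 2 of 10 and lowest for 5 of 10, with sums of 124.8 FPKM in mutant 1 and 128.8 to 134.4 FPKM in mutants 2 and 3, against 133.7 to 139.0 FPKM in siblings. The median log2 difference of mutant 1 from mutants 2 and 3 was 1.33 for numbers 9-13 of the Hox genes and 1.33 for trunk muscle, beside 0.69 for the tail bud, 0.19 for the pronephros, 0.10 for the pectoral fin bud, −0.35 for hindbrain segments, −1.25 for forebrain and midbrain and −1.86 for the eye.

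**Figure D4:**
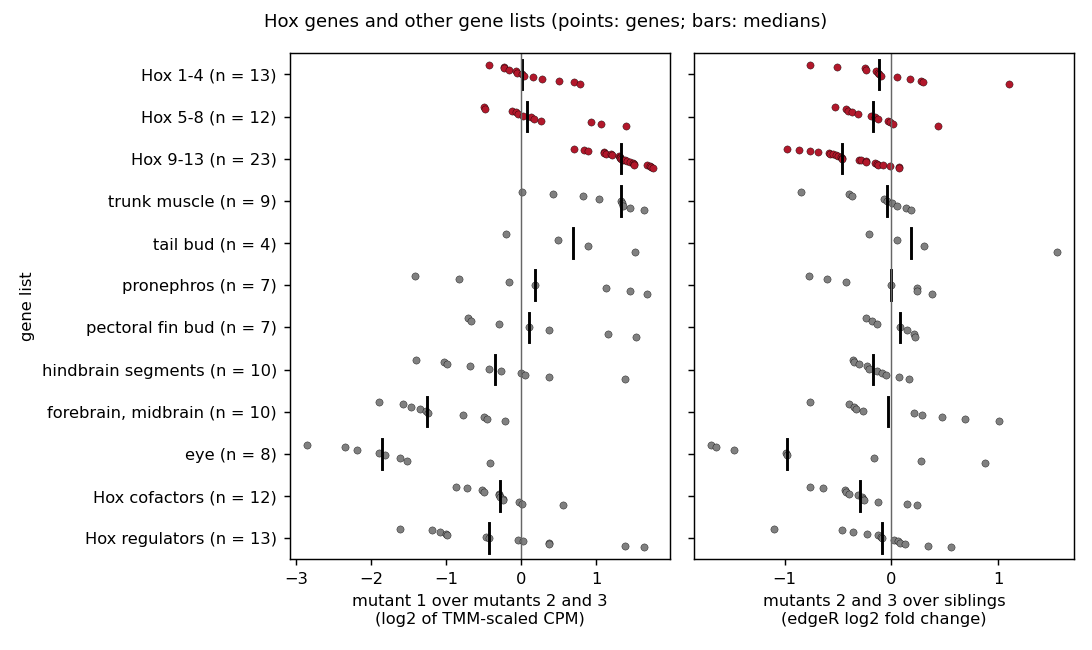
Points are single genes and black bars are medians, for the 3 groups of Hox genes (red) and 9 other gene lists (grey). The left panel gives the log2 ratio of mutant 1 to the mean of mutants 2 and 3, and the right panel the edgeR log2 fold change of mutants 2 and 3 over siblings. Numbers 9-13 and trunk muscle have medians of 1.33 on the left, while on the right their medians are −0.46 and −0.04.

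The comparison of mutants 2 and 3 with the 3 siblings asks which Hox genes differ between genotypes when mutant 1 is set aside. It called 10 of 48 genes at an adjusted p of 0.05 or lower, 2 higher and 8 lower, or 4.17% and 16.7% of the genes, beside 8.22% higher and 8.17% lower of all 24821 genes tested. Among numbers 1-4, hoxb1a rose and hoxa2b and hoxc4a fell. Among numbers 5-8, hoxb6a rose and hoxc8a fell. Among numbers 9-13, 5 genes fell and none rose. A change of at least 2-fold was reached by hoxb1a alone, where 4.38% of all genes were called and changed by that much in either direction. Fold changes below 0 were found for 39 of the 48 genes, beside 12712 of the 24821 genes tested. Their median was −0.23, with −0.12 for numbers 1-4, −0.17 for numbers 5-8 and −0.46 for numbers 9-13, beside −0.01 over all genes. Number and log2 fold change had a Pearson correlation of −0.40 and a Spearman correlation of −0.35 over the 48 genes, which share the 5 libraries.

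Within the first group, hoxb1a, which gives rhombomere 4 of the hindbrain its identity, was the only Hox gene more than 2-fold higher in mutants. It had 5.83, 5.86 and 6.35 CPM in mutants 1, 2 and 3, against 2.19, 2.79 and 3.46 CPM in siblings 1, 2 and 3. All 3 mutants, mutant 1 included, lay above all 3 siblings, and the mutants were closer to each other than the siblings were. Its log2 fold change was 1.1 ± 0.21 without mutant 1 (SE, edgeR adjusted p = 0.0131) and 1.09 ± 0.20 with all 3 mutants (SE, edgeR adjusted p = 0.0197). Its copy hoxb1b, which acts earlier in the same hindbrain region, did not pass the test, with 38.3, 25.4 and 28.6 CPM in the mutants, against 28.1, 28.0 and 31.3 CPM in the siblings. The ratio of hoxb1a to hoxb1b per length, which is free of library scaling, was 0.162, 0.246 and 0.236 in mutants 1, 2 and 3, against 0.0831, 0.106 and 0.118 in siblings 1, 2 and 3.

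In the opposite direction, hoxa2b, which gives the second pharyngeal arch its identity, fell in mutants. It had 9.14, 7.70 and 7.42 CPM in mutants 1, 2 and 3, against 12.2, 13.8 and 12.2 CPM in siblings 1, 2 and 3, and the groups did not overlap. Its log2 fold change was −0.76 ± 0.11 without mutant 1 (SE, edgeR adjusted p = 0.00519) and −0.66 ± 0.14 with it (SE, edgeR adjusted p = 0.0309). The other gene of number 2, hoxb2a, which is used in rhombomeres 3 to 5, had 17.9, 21.6 and 20.5 CPM in the mutants, against 17.9, 17.3 and 16.7 CPM in the siblings, with a log2 fold change of 0.28 without mutant 1 (edgeR adjusted p = 0.0691). Its 3 mutant libraries were all above the siblings, by a narrow margin for mutant 1. The ratio of hoxa2b to hoxb2a per length was 0.490, 0.341 and 0.346 in the mutants, against 0.656, 0.762 and 0.7 in the siblings, so the 2 genes of this number were in a different proportion in every mutant.

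The third called gene of numbers 1-4 was hoxc4a, a gene of the posterior hindbrain and spinal cord. It had 8.23, 11.2 and 10.9 CPM in mutants 1, 2 and 3, against 15.2, 16.4 and 15.3 CPM in siblings 1, 2 and 3. All mutants were below all siblings, and mutant 1 was the lowest. Its log2 fold change was −0.51 ± 0.09 without mutant 1 (SE, edgeR adjusted p = 0.0126) and −0.63 ± 0.15 with it (SE, edgeR adjusted p = 0.0452). The copy of the same number in the HoxB cluster, hoxb4a, had 17.8, 20.8 and 18.9 CPM in the mutants, against 16.9, 16.5 and 15.0 CPM in the siblings, and did not pass the test (edgeR adjusted p = 0.0853 without mutant 1). The most abundant Hox genes of the hindbrain were below their sibling levels by a small amount. The mean of mutants 2 and 3 over that of siblings was 0.942 for hoxb3a and 0.855 for hoxa3a. For hoxb3a, a gene of rhombomeres 5 and 6, the values were 84.3, 87.6 and 87.7 CPM in mutants 1, 2 and 3, against 88.9, 99.9 and 90.3 CPM in siblings 1, 2 and 3. For hoxa3a they were 56.2, 50.5 and 58.9 CPM in the mutants, against 61.4, 66.1 and 64.5 CPM in the siblings. Both genes had lower values in all 3 mutants than in all 3 siblings, but the differences did not pass the test (edgeR adjusted p = 0.501 and 0.143 without mutant 1). In the paired fit without mutant 1 described below, hoxa3a was called lower (edgeR adjusted p = 0.0346).

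In the middle group, hoxb6a and hoxc8a, genes of the trunk, were called without mutant 1. The level of hoxb6a was 11.6, 10.7 and 12.2 CPM in mutants 1, 2 and 3, against 8.24, 8.06 and 8.95 CPM in siblings 1, 2 and 3, with all mutants above all siblings. Its log2 fold change was 0.43 ± 0.12 without mutant 1 (SE, edgeR adjusted p = 0.043) and 0.45 ± 0.12 with it (SE, edgeR adjusted p = 0.0718). Its call without mutant 1 was lost with library sizes alone, without a filter on low counts and with limma on unfiltered FPKM (adjusted p = 0.0614, 0.0568 and 0.0774), and DESeq2 called it also over all 3 mutants (adjusted p = 0.0247). The level of hoxc8a was 10.6 and 11.6 CPM in mutants 2 and 3, against 17.5, 16.1 and 14.3 CPM in siblings 1, 2 and 3, with a log2 fold change of −0.53 ± 0.12 (SE, edgeR adjusted p = 0.0246). With mutant 1 at 23.1 CPM, the log2 fold change over all 3 mutants was −0.08 ± 0.29 (SE, edgeR adjusted p = 0.896). The remaining 10 genes of numbers 5-8 did not pass the edgeR test. Of these, hoxb8b was called lower by DESeq2 (adjusted p = 0.0333) and by limma on filtered FPKM. HOXB5-54030 was nearly level, with 25.2 and 25.4 CPM in mutants 2 and 3, against 21.3 to 27.4 CPM in siblings. The lowest fold change of the group over all 3 mutants was that of hoxc5a (−0.41, edgeR adjusted p = 0.133), with 4.64, 4.90 and 4.67 CPM in the mutants, against 6.04, 6.96 and 5.87 CPM in the siblings.

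Among numbers 9-13, hoxa9a and hoxa9b, copies that are used in the pectoral fin bud, showed the largest called decreases in mutants 2 and 3. The level of hoxa9a was 10.5 CPM in mutant 1 and 4.17 CPM in both mutants 2 and 3, against 6.87, 7.01 and 7.20 CPM in siblings 1, 2 and 3. The log2 fold change of mutants 2 and 3 over siblings was −0.76 ± 0.13 (SE, edgeR adjusted p = 0.00819). The level of hoxa9b was 25.5, 6.45 and 9.16 CPM in mutants 1, 2 and 3, against 16.1, 13.4 and 13 CPM in the siblings, with a log2 fold change without mutant 1 of −0.87 ± 0.18 (SE, edgeR adjusted p = 0.0176). For both copies, mutants 2 and 3 lay below and mutant 1 above all siblings. The ratio of hoxa9a to hoxd9a per length was 0.343, 0.378 and 0.347 in mutants 1, 2 and 3, against 0.512, 0.624 and 0.612 in siblings 1, 2 and 3. Relative to hoxd9a, hoxa9a was thus lower in all 3 mutants. This did not extend to hoxb9a in every mutant. Mutant 1 had 7.82 FPKM of hoxa9a beside 26.6 FPKM of hoxb9a, and sibling 1 had 5.13 beside 18.1 FPKM.

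The other called genes of numbers 9-13 were hoxb9a, hoxc11a and HOXC12-70352. The level of hoxb9a was 27.9 and 34.7 CPM in mutants 2 and 3, against 46.7, 42.4 and 40.1 CPM in siblings 1, 2 and 3, with a log2 fold change of −0.47 ± 0.12 (SE, edgeR adjusted p = 0.0397). The level of hoxc11a was 4.01 and 4.67 CPM in mutants 2 and 3, against 6.77, 5.76 and 6.94 CPM in the siblings, with a log2 fold change of −0.59 ± 0.15 (SE, edgeR adjusted p = 0.0404). For HOXC12-70352 the values were 7.91 and 9.84 CPM in mutants 2 and 3, against 12.7, 12.5 and 12.7 CPM in the siblings, with a log2 fold change of −0.52 ± 0.12 (SE, edgeR adjusted p = 0.0306). Mutants 2 and 3 were below all siblings in each of these genes, and mutant 1, at 68.5, 14.4 and 22.1 CPM, was above all siblings. Over all 3 mutants the log2 fold changes of these genes were 0.02, 0.24 and 0.07 (edgeR adjusted p = 0.977, 0.789 and 0.922). Over the whole group, mutants 2 and 3 were both below the 3 siblings for 12 of 23 genes and both above for 0, beside 24.3% and 23.5% of all genes tested. For numbers 1-4 both were below for 5 and above for 3 of 13 genes, and for numbers 5-8 below for 6 and above for 1 of 12.

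Decreases in mutants 2 and 3 were not shared evenly over numbers 9-13. The HoxA genes had a median log2 fold change of −0.46 (7 genes), HoxB −0.12 (3 genes), HoxC −0.48 (8 genes) and HoxD −0.30 (5 genes). By number, the median was −0.47 for 9, −0.35 for 10, −0.55 for 11, −0.58 for 12 and −0.12 for 13. The highest values of the group were those of hoxb13a and HOXC13-13877, each with 0.07 (edgeR adjusted p = 0.867 and 0.894), whose libraries overlapped between genotypes. The lowest was that of HOXA11-04162 (−0.98, standard error 0.47, edgeR adjusted p = 0.211), which had 0.487 and 0.307 CPM in mutants 2 and 3, against 0.469, 0.947 and 0.914 CPM in the siblings. The mutants 2 and 3 also differed from each other. Mutant 3 was above mutant 2 in 21 of 23 genes with numbers 9-13, 10 of 12 with numbers 5-8 and 9 of 13 with numbers 1-4. Among numbers 9-13, mutant 2 was the lowest of the 6 libraries for 18 of the 23. The same counts were not taken over all genes, so whether they are particular to Hox genes was not tested.

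The lists of trunk and tail tissue had medians near 0 where the Hox genes with numbers 9-13 had −0.46. Over all genes tested, 8.17% were called lower and 8.22% higher in mutants 2 and 3. Trunk muscle genes had a median log2 fold change of −0.04 between mutants 2 and 3 and siblings, tail bud genes 0.18, pronephros genes −0.01 and pectoral fin bud genes 0.08. Of these 27 genes, tnnt3b, a troponin of fast muscle (−0.40, edgeR adjusted p = 0.0238), and pax8, a gene of the kidney and the midbrain-hindbrain boundary (−0.77, edgeR adjusted p = 0.0159), fell and none rose. Eye genes had a median of −0.98, with 4 of 8 lower and 1 higher. Those that fell were vsx1, a gene of bipolar cells (−1.65, edgeR adjusted p = 0.000469), the lens crystallin cryaa (−1.69, edgeR adjusted p = 0.00341), the ganglion cell factor atoh7 (−1.48, edgeR adjusted p = 0.00334) and rx2 (−0.98, edgeR adjusted p = 0.0105), and rx1 rose (0.88, edgeR adjusted p = 0.00391). Of 10 forebrain and midbrain genes, fezf2, otx2a and emx3 rose (1.01, 0.69 and 0.47) and barhl2, tal1 and otx2b fell (−0.76, −0.40 and −0.35), with edgeR adjusted p between 0.000728 and 0.0499. None of the 10 hindbrain segment genes passed the test, and their median was −0.18. The part of these tissues in the Hox values was not tested.

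When the numbers shared by mutant and sibling labels were taken as pairs, 20 Hox genes were called between mutants 2 and 3 and siblings, 4 higher and 16 lower, beside 14.7% and 14.9% of all genes. The 10 genes called without this replicate block were all among them. The 10 further calls were hoxb2a and hoxb4a, higher, and hoxc1a, hoxa3a, hoxc5a, hoxb8a, hoxb8b, HOXA11-04162, hoxc11b and HOXC12-03133, lower (edgeR adjusted p between 0.00646 and 0.0479). By group the paired calls were 7 of 13 genes with numbers 1-4, 5 of 12 with numbers 5-8 and 8 of 23 with numbers 9-13. The only paired call of at least 2-fold was HOXA11-04162, the gene with the fewest counts (−1.26, edgeR adjusted p = 0.0478). Here hoxb1a stayed below 2-fold (0.96). In this fit mutant 1 is absent, so sibling 1 has no partner and the difference rests on pairs 2 and 3. That leaves little from which to estimate the spread between pools. The rise from 10 to 20 calls therefore cannot be read as a gain from pairing.

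With all 3 mutants against the 3 siblings, 3 of the 48 Hox genes were called, hoxb1a higher and hoxa2b and hoxc4a lower, or 2.08% and 4.17%, beside 3.96% higher and 3.83% lower of all genes. Again hoxb1a alone was changed at least 2-fold, beside 3.34% of all genes in either direction. None of numbers 5-8 or 9-13 was called by edgeR. Its unadjusted p was 0.05 or lower for 3 of 12 and 0 of 23, beside 5883 of all 24277 genes tested. DESeq2 called 1 of 12, hoxb6a, and 0 of 23, beside 3449 of 31067 genes. The replicate block left the same 3 calls. The median log2 fold change was 0.11 for numbers 1-4, −0.14 for numbers 5-8 and 0.24 for numbers 9-13, beside 0.02 over all genes. For numbers 9-13 the median was of the opposite sign to that without mutant 1, and 18 of 23 genes had fold changes above 0, where 2 of 23 had them without mutant 1. This positive median depended on the setting, with 0.048 in the replicate block (15 of 23 genes above 0), 0.021 with library sizes alone, −0.056 with log2(FPKM + 1) and −0.084 with log2(FPKM + 0.1). The extremes of the 3-against-3 comparison were hoxb7a for numbers 5-8 (0.48, standard error 0.37) and HOXC13-13877 and HOXA11-04162 for numbers 9-13 (0.76 and −0.64, standard errors 0.45 each), none of which passed the test. The standard errors of numbers 9-13 were wider with mutant 1, for hoxa9b 0.46 in this comparison and 0.18 without mutant 1. The exception was HOXA11-04162, with 0.45 in this comparison and 0.47 without mutant 1.

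**Figure D5:**
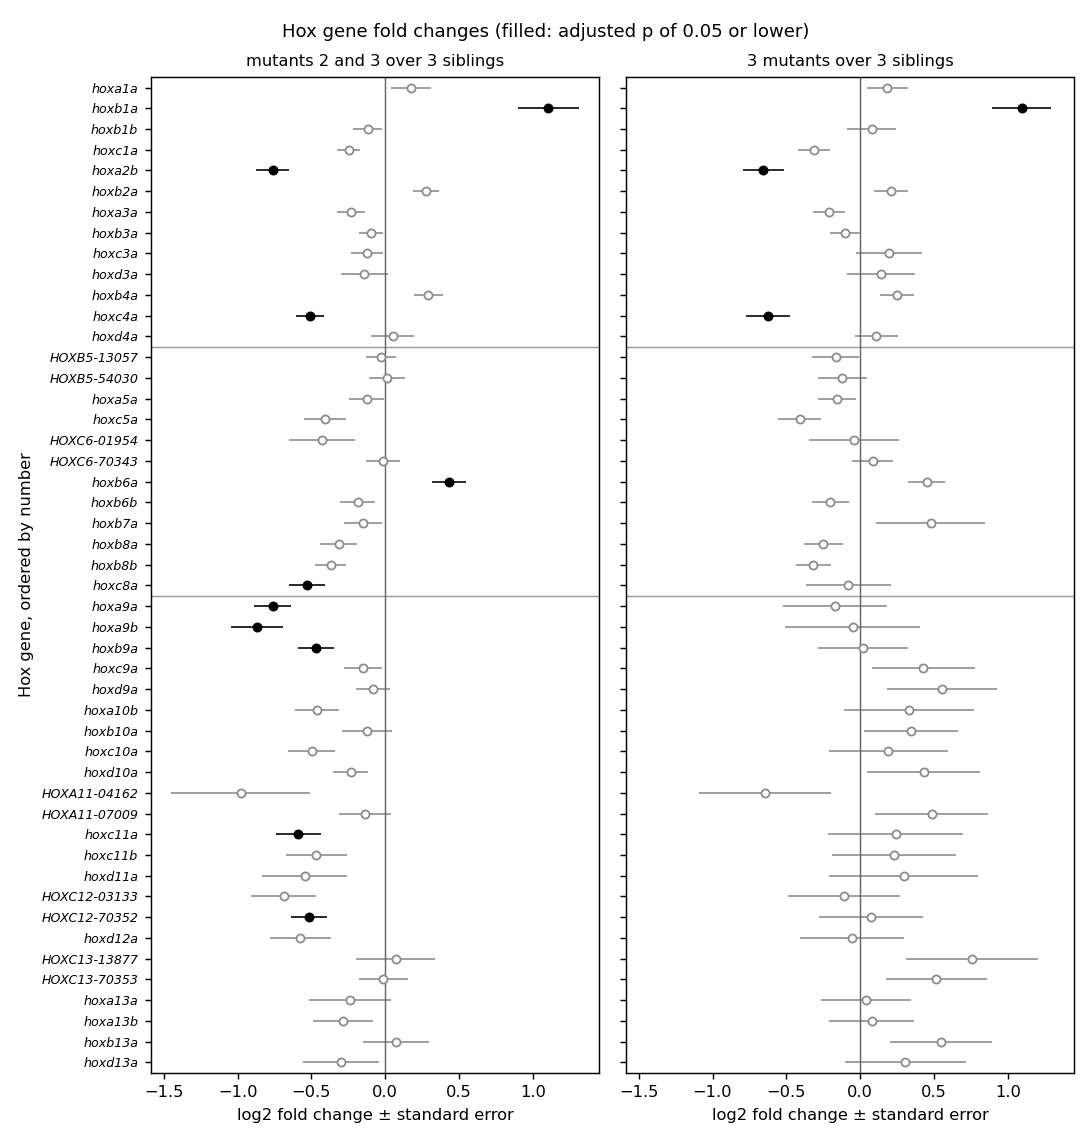
Log2 fold change with its standard error for each of the 48 Hox genes, ordered by number, for mutants 2 and 3 over siblings (left) and for all 3 mutants over siblings (right). Filled points passed an edgeR adjusted p of 0.05. On the left 10 genes are filled, 5 of them with numbers 9-13 and all below 0, and on the right hoxb1a, hoxa2b and hoxc4a are filled.

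Each library was also left out in turn. Of the 3 calls over all 6 libraries, hoxb1a was kept without sibling 3, and none was kept without mutant 2, mutant 3, sibling 1 or sibling 2, where the adjusted p was 0.0564 to 0.0956 for hoxb1a, up to 0.14 for hoxa2b and up to 0.171 for hoxc4a. Calls over all genes also fell in these 4 fits, to 895, 544, 505 and 359, against 1890 with 6 libraries, while the log2 fold changes were 0.95 to 1.11 for hoxb1a, −0.68 to −0.60 for hoxa2b and −0.71 to −0.60 for hoxc4a. Of the 10 calls without mutant 1, 1 was kept without mutant 2 (hoxa2b) and 2 without mutant 3 (hoxa9b and HOXC12-70352), with 1 mutant against 3 siblings. Without sibling 1, sibling 2 or sibling 3, 5, 5 and 6 were kept, always hoxb1a, hoxa2b, hoxc4a, hoxa9a and hoxa9b. Calls over all genes were 1540 and 1210 without mutant 2 and mutant 3, and 3280, 2575 and 2915 without siblings 1, 2 and 3, against 4069 with the 5 libraries. The log2 fold changes stayed within 0.95 to 1.28 for hoxb1a, −0.79 to −0.69 for hoxa2b, −0.53 to −0.46 for hoxc4a and −0.78 to −0.74 for hoxa9a over these 5 fits, and spanned −1.14 to −0.64 for hoxa9b.

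Pbx and Meis proteins bind DNA together with Hox proteins. Of 12 such genes, 5 fell and none rose in mutants 2 and 3 against siblings, beside 8.17% and 8.22% of all genes tested. Their median log2 fold change was −0.30. The largest decrease was that of pbx3b, listed as PBX3 without its copy letter, with 28.2 and 23.5 CPM in mutants 2 and 3, against 41.8, 43.1 and 45.5 CPM in siblings 1, 2 and 3 (−0.76, edgeR adjusted p = 0.00426). Next came pbx1b (−0.64, edgeR adjusted p = 0.0207), pbx1a (−0.44, edgeR adjusted p = 0.0209), meis2b (−0.40, edgeR adjusted p = 0.0292) and pbx4 (−0.32, edgeR adjusted p = 0.0387), the main Pbx gene of the early zebrafish hindbrain. Over all 3 mutants, pbx3b and pbx1a remained called (−0.98 and −0.52, edgeR adjusted p = 0.0432 and 0.0469). Mutant 1 was the lowest library for 9 of the 12 and the highest for 1, beside 30.3% and 27.6% of all genes tested. The 1 gene was meis1a, with 146.2, 99.6 and 99.0 CPM in mutants 1, 2 and 3, against 86.1, 86.8 and 78.7 CPM in siblings 1, 2 and 3. Without mutant 1, meis1a and pbx2 had fold changes above 0 but did not pass the test (0.24 and 0.15, edgeR adjusted p = 0.0854 and 0.26).

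Of 13 regulators of Hox expression, 1 fell (gdf11) and 1 rose (cyp26a1) in mutants 2 and 3, beside 8.17% and 8.22% of all genes tested. The median log2 fold change of the regulators was −0.09. Mutant 1 was the highest library for 4 of the 13 and the lowest for 7, beside 27.6% and 30.3% of all genes tested. The growth factor Gdf11 promotes the change from trunk to tail and the use of posterior Hox genes in mouse. Its gene had 2.85, 5.77 and 5.53 CPM in mutants 1, 2 and 3, against 10.2, 12.5 and 13.3 CPM in siblings 1, 2 and 3, and was called in both comparisons (−1.1, edgeR adjusted p = 0.00357, without mutant 1, and −1.35, edgeR adjusted p = 0.0267, with it). The lowest library was mutant 1. The part of gdf11 in the Hox values was not tested. The level of cyp26a1, which encodes an enzyme that breaks down retinoic acid, was 19.8, 26.7 and 28.0 CPM in mutants 1, 2 and 3, against 17.0, 17.9 and 20.5 CPM in siblings 1, 2 and 3 (0.56, edgeR adjusted p = 0.0128, without mutant 1). Of the Cdx factors, which turn on Hox genes of the trunk, cdx4 had 3.43 CPM in mutant 1, beside 0.782 to 1.42 CPM in the other 5 libraries. The other Cdx genes measured were lowest in mutant 1, with 0.149 CPM for cdx1a, beside 0.251 to 0.528 CPM elsewhere, and 0.801 CPM for cdx1b, beside 1.24 to 2.51 CPM elsewhere.

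Next to hoxd13a at the end of its cluster lies evx2, a homeobox gene of spinal interneurons and fins. In mutant 1 it was low where hoxd13a was high. The level of evx2 was 4.49, 8.82 and 7.85 CPM in mutants 1, 2 and 3, against 13.3, 13.7 and 14.2 CPM in siblings 1, 2 and 3 (−0.73, edgeR adjusted p = 0.00498, without mutant 1, and −0.96, edgeR adjusted p = 0.0511, with it). All mutants were below all siblings, with mutant 1 the lowest. The level of hoxd13a was 6.35, 1.87 and 3.09 CPM in the mutants, against 2.81, 2.83 and 3.47 CPM in the siblings, with mutant 1 the highest and the other 5 libraries overlapping between genotypes. The other Evx-related gene measured, eve1, was highest in mutant 1, with 3.43, 1.05 and 2.40 CPM in mutants 1, 2 and 3, against 0.72, 1.51 and 2.18 CPM in siblings 1, 2 and 3, and did not pass the test in either comparison.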

How the data were processed

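RNA-seq was performed by the authors on 6 pools of heads. Per the labels and the paper's methods, reads were aligned to GRCz11 with HISAT2 2.0.4, and both featureCounts and HTSeq (0.9.1 in the submitters' processing notes) are named for counting. The deposited counts are whole numbers per gene without normalization. The deposited FPKM values of the authors equal count over library total and gene length, with a largest relative deviation of 3.17e-07 over 25681 genes. Strand use and annotation are not given in the sources used here, and the sources do not say how the pools of a genotype differ, so p-values measure the spread between these pools.

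From the counts, edgeR 4.0.16 (R 4.3.3) removed low genes (filterByExpr), applied TMM scaling and ran its quasi-likelihood test, once on 6 libraries and once refitted without mutant 1, with Benjamini-Hochberg adjustment over all genes. The biological coefficient of variation was 0.243 and 0.186. Alternatives were DESeq2 1.42.0, scaling by RLE or by library sizes alone, omitting the filter or asking for 10 counts in each library, limma 3.58.1 on log2(FPKM + 1) or log2(FPKM + 0.1) with a mean of at least 0.5 FPKM, log2(FPKM + 1) without a filter, the replicate number as a block and each library left out. The fits were tested on simulated counts with 200 genes changed 2-fold. These counts had the same dispersion for every gene, no outlying library and no effect of replicate number. The changed genes were taken from those above a minimum mean count. There edgeR called 68% of them with 6 libraries and 52% without mutant 1, with 7 and 5 false calls. With the replicate block and without mutant 1 it called 29%, with 2 false calls. Even in this simpler setting changed genes were missed, so a gene that did not pass may still differ. The shares do not give the power in these data, where mutant 1 stood apart. There the calls over all genes were 1890 with 6 libraries and 4069 without mutant 1. Levels per length are TMM-scaled CPM over gene length in kilobases. Python 3.11.15 and matplotlib 3.10.9 were used for summaries and figures.

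The members and lists were chosen with earlier results of these data known. Named were each Hox gene called in either comparison, the 3 highest in siblings and the extremes of fold change in each number group, hoxb1a, and each called gene of the other lists. Other genes with values were chosen after these were seen. Of 116 list symbols 85 were matched, 15 of them without the copy letter. The gene hoxa4a was not analysed here. Over 24277 genes, mutant and sibling libraries of equal number deviated together from their group means (correlations 0.329, 0.382 and 0.44). Those of unequal number did not (−0.227 to −0.124). Deviations within a genotype cancel for each gene, so positive values at equal numbers push the others negative. The negative values are therefore not separate evidence. From the positive values, the numbers were taken to pair the libraries. Where the pairing comes from is not stated.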

Additional observations from a re-analysis of the deposited data

How the results depend on the processing

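Of the settings that kept all libraries, RLE scaling, both other filters on counts and DESeq2 changed neither count of calls by over 1.5 times. The largest of these changes was that of DESeq2 without mutant 1, with 15 calls in place of 10. It added hoxc1a, hoxb2a, hoxb8b, hoxa10b and HOXC12-03133. Over all genes it called 5326 of 30781, where edgeR called 4069 of 24821. Over all 6 libraries, library sizes alone and the 3 settings on FPKM each called 1 Hox gene (hoxa2b) in place of 3. For numbers 1-4 the median was −0.022 with library sizes alone, −0.029 with log2(FPKM + 1), with and without a filter, and −0.032 with log2(FPKM + 0.1). For numbers 5-8 it was −0.27, −0.27 and −0.29, and for numbers 9-13 it was 0.021, −0.056 and −0.084, in place of 0.24. Library sizes alone shifted the median of all genes to −0.11, from 0.02 with TMM, and made mutant 1 the lowest library for 14 Hox genes in place of 8. Over all 24277 genes tested, mutant 1 was then lowest for 12681 in place of 7368. Without mutant 1, hoxb6a was not called with library sizes alone, without a filter on counts or with unfiltered FPKM, and hoxb9a and hoxc11a were not called with unfiltered FPKM. The median of numbers 9-13 was −0.26 with log2(FPKM + 1), with and without a filter. Only 4 calls without mutant 1 were among the 15 genes whose symbol holds its copy letter, an alternative chosen after seeing the data. The summed level of mutant 1 over mutants 2 and 3 was 0.879, 0.939 and 1.99 for numbers 1-4, 5-8 and 9-13 with deposited FPKM, and 0.861, 0.887 and 2.00 as a share of the total count, in place of 1.11, 1.19 and 2.53. That of mutants 2 and 3 over siblings was 0.915 for numbers 1-4 as a share of the total count, in place of 0.940.

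With the replicate block, 20 genes were called without mutant 1, and no call was lost in either comparison. Changes of sign are given for the Hox genes named by the rule above. Outside that rule, HOXC6-70343 turned in the paired fit without mutant 1, from −0.015 to 0.014. Among the named genes, signs of genes that were not called turned in this fit for hoxb9a (−0.089), hoxc11a (−0.00051) and HOXC12-70352 (−0.074) over 6 libraries. Without mutant 1, signs turned for hoxb13a (−0.0064) and HOXB5-54030 (−0.087). They also turned for hoxb9a and HOXC12-70352 with library sizes alone (−0.17 and −0.12), for hoxb9a, hoxc11a and HOXC12-70352 with log2(FPKM + 1), with and without a filter (−0.21, −0.085 and −0.19), and with log2(FPKM + 0.1) (−0.22, −0.13 and −0.21), and for HOXB5-54030 without mutant 1 with library sizes alone (−0.0029). Within each comparison, no gene called by edgeR with TMM and its standard filter changed sign under any alternative run. Between the comparisons, hoxb9a, hoxc11a and HOXC12-70352 did change sign. They were called lower without mutant 1, but were above 0 and not called over 6 libraries (0.02, 0.24 and 0.07).

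With each library left out, 0 to 10 genes were called over 6 libraries and 1 to 6 without mutant 1. Where a mutant was left out of that second fit, the lone mutant is assumed to vary like the siblings. Over 6 libraries, the medians ranged over −0.12 to 0.19 for numbers 1-4 and −0.46 to 0.55 for numbers 9-13. Without mutant 1, they ranged over −0.21 to 0.014, −0.23 to −0.090 and −0.63 to −0.23 for numbers 1-4, 5-8 and 9-13. Changes of sign are again given for the named genes only. Those not called over 6 libraries whose sign turned had ranges of −0.15 to 0.73 (hoxb7a), −0.53 to 0.12 (hoxc8a), −0.76 to 0.056 (hoxa9a), −0.87 to 0.29 (hoxa9b), −0.47 to 0.26 (hoxb9a), −0.59 to 0.55 (hoxc11a), −0.52 to 0.34 (HOXC12-70352), −0.12 to 0.38 (hoxc3a), −0.22 to 0.014 (HOXB5-54030) and −0.15 to 0.69 (hoxc9a). Without mutant 1 these were −0.27 to 0.34 (HOXC13-13877), −0.15 to 0.31 (hoxb13a), −0.28 to 0.014 (hoxc3a) and −0.087 to 0.090 (HOXB5-54030). Depth was lowest for HOXA11-04162, with 21 counts in its lowest library.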
